A study of Mus musculus with 8 samples.

Results

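The matrix metalloproteinase (MMP) system of bone marrow-derived macrophages (BMDM) was described through 10 genes, namely Mmp8, Mmp9, Mmp12, Mmp13, Mmp14, Mmp19, Timp1, Timp2, Timp3 and Adam8. These were chosen by family name from the gene expression table, with their So(d18:1) and control values in these same 8 libraries in view. Their differences between the groups are therefore given as a description, and nothing is read from their outcome in the test over all genes. The 10 genes stood among 55357 listed genes, and all 10 passed the filter on low counts that left 14514 genes for testing. The study asked which genes change in macrophages given So(d18:1), the sphingosine with an 18-carbon backbone and a single double bond, a lipid released when ceramide is broken down.

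BMDM are macrophages that are grown in culture from marrow cells. Marrow of C57BL/6J mice was kept in RPMI medium with fetal bovine serum and 10 ng/ml M-CSF, the growth factor that drives marrow cells to macrophages, for 5 to 6 days. The cells then received 2 μM So(d18:1) dissolved in methanol, or methanol alone as control, for 6 h, and poly(A) RNA was sequenced from 4 libraries of each group. The labels name no inflammatory stimulus, whereas the text of the study places these cells under inflammatory stimulation. The study used male C57BL/6J wild-type mice. Its methods name wild-type C57BL/6J mice as marrow donors, beside mice that lacked or overexpressed the transcription factor HIF-2α in macrophages. The sex of the marrow donors is not stated, and their age is not given in the sources used here. The study describes the libraries of each group as biologically independent without saying whether they came from separate mice or cultures, and p-values measure the spread between these libraries. In bulk RNA, fewer cells of a type and less RNA per cell cannot be told apart.

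MMPs are zinc-dependent endopeptidases that are made as inactive zymogens and, once activated, cut collagens, elastin, laminins and many cell surface and secreted proteins. Most are secreted, and a few such as Mmp14 are anchored in the membrane. The tissue inhibitors of metalloproteinases (TIMPs) bind the active site of MMPs, and Timp3 also inhibits several members of the ADAM family, membrane proteases that shed the outer parts of other membrane proteins. Macrophages both lay down and take up matrix, and in injured tissue they are a well-known source of Mmp9, Mmp12, Mmp13 and Mmp14. RNA levels give neither the amount of protein nor its activity.

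Mmp13, Mmp12, Mmp8 and Mmp27 lie on the plus strand of the MMP cluster of chromosome 9, and they are the genes of that cluster that were tested here. The 250 bases before their RefSeq starts (GRCm38.p6) are shown because the cluster holds Mmp8 and Mmp13, the MMP genes with the largest differences. Capitals mark exact matches, on either strand, to an AP-1 motif (TGANTCA), an ETS motif (AGGAAG), a RUNX motif (TGTGGT), the TATA box (TATAAA) or the core of a hypoxia response element (ACGTG or GCGTG). The windows, all 5′ to 3′, are chr9:7272264-7272513 for Mmp13, chr9:7347124-7347373 for the second of the Mmp12 starts, chr9:7558179-7558428 for Mmp8 and chr9:7571146-7571395 for Mmp27.
Mmp13: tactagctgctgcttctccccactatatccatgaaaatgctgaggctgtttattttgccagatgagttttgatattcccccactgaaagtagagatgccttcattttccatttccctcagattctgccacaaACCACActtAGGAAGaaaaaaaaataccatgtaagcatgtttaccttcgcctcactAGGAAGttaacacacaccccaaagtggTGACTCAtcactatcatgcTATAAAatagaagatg
Mmp12: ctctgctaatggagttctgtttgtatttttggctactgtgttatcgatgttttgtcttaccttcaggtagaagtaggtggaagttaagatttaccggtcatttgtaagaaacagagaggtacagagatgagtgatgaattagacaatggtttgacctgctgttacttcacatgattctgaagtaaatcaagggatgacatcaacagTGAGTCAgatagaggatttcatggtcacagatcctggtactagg
Mmp8: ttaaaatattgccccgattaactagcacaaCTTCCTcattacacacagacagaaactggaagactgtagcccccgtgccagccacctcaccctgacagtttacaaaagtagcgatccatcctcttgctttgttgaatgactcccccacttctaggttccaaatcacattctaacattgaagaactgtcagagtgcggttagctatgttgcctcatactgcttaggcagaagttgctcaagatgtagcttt
Mmp27: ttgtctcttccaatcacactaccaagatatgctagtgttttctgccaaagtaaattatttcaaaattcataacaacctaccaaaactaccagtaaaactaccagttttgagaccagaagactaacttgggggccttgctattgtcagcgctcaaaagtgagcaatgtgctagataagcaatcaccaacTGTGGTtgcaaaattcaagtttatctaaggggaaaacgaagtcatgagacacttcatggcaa

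Mmp13 held the most matches, with a RUNX match on the other strand (ACCACA) whose first base is at -118 from the start, ETS matches at -109 and -62, an AP-1 match at -35 and a TATA box match at -16. The printed Mmp12 window held an AP-1 match at -44, Mmp8 an ETS match on the other strand (CTTCCT) at -220 and Mmp27 a RUNX match at -62. The whole printed Mmp12 window lies inside the annotated span of Mmp12, so its AP-1 match is not upstream of that gene's annotated start. The window of the first Mmp12 start includes annotated exon bases and is not printed. It held an ETS match on the other strand (CTTCCT) at -87 and no AP-1 match. Over 32851 promoter windows of 250 bases, 6.75% held the AP-1 motif, 29.5% the ETS motif, 14.0% the RUNX motif, 12.4% the TATA box and 38.6% the hypoxia response core. None of the 4 printed windows held the hypoxia response core. Over the RefSeq windows of the 10 genes, the core was matched in Mmp14 at -48, in Timp1 at -206 and -82, in Timp2 at -113 and in Timp3 at -69. Of their 250 bases, the Timp2 window includes 203 annotated exon bases and the Timp3 window 40. The whole Timp2 window lies inside the annotated span of Timp2, so its match is not upstream of that gene's annotated start. A match describes letters and is no evidence of binding. RefSeq windows were at hand for 8 of the 10 genes, all but Mmp9 and Mmp19.

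The libraries held 17748397 to 26088609 reads counted on genes, with a median of 22926576. Levels are given as counts scaled to a common library total after TMM scaling (CPM), and as CPM per kb of merged exon where genes are compared with each other. The macrophage markers Csf1r, Adgre1 and Cd68 stood at 6234 ± 98.2, 2213 ± 60.9 and 763 ± 35.2 CPM in the controls (SD, n = 4). Genes whose adjusted p was under 0.05 in edgeR's quasi-likelihood test, with Benjamini-Hochberg adjustment over all genes tested, were counted as called. This held for 1298 of the 14514 genes tested (8.94%), 562 of them higher with So(d18:1) (3.87%) and 736 lower (5.07%). Among the 10 genes, 2 were called higher (Mmp8 and Mmp13) and 1 lower (Timp2), and nothing is read from that count because the genes were chosen on this contrast. The levels of the 2 groups did not overlap for 4 of the 10 genes, against 2179 of all genes tested (15.0%). The median log2 fold change of the 10 genes was -0.08, with 4 above 0 and 6 below, beside a median of 0.004 over all genes tested.

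**Figure D1:**
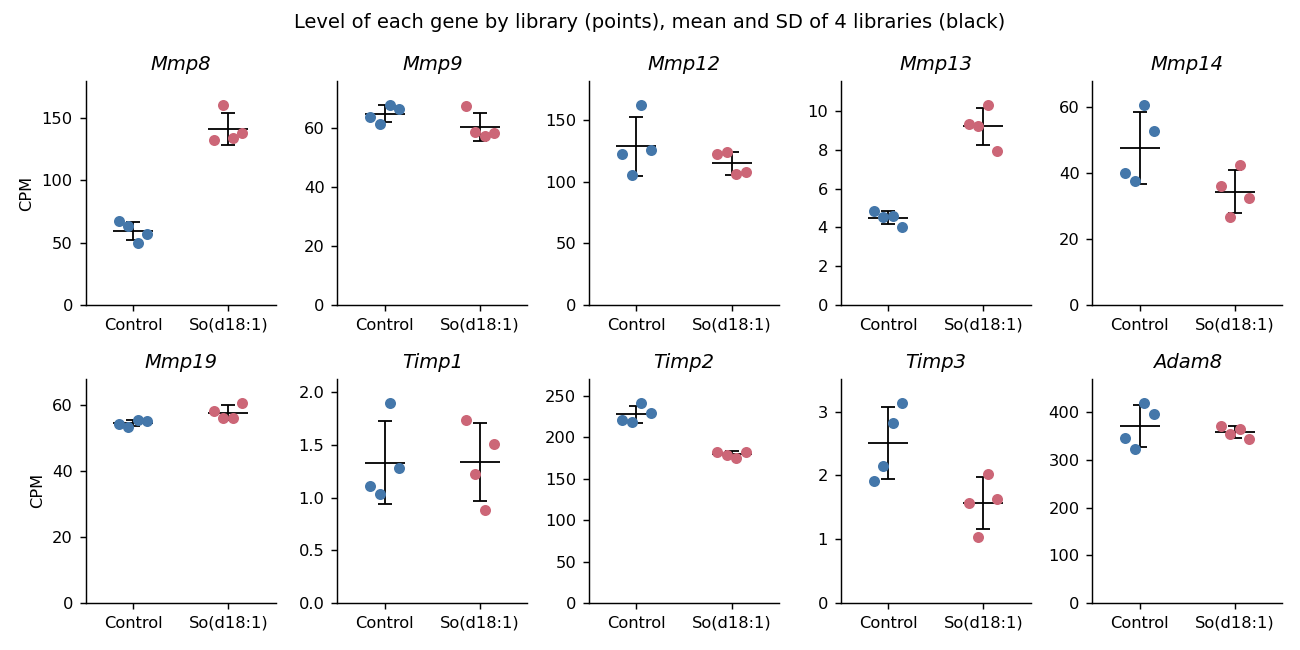
Each panel plots the CPM of a gene (vertical axis, from 0) in the 4 control (blue) and 4 So(d18:1) (red) libraries as points, with the mean and SD in black. Mmp8 and Mmp13 lie higher in all 4 So(d18:1) libraries, Timp2 lies lower in all 4, and Mmp9, Mmp12, Mmp14, Timp1, Timp3 and Adam8 overlap between the groups.

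Mmp8, the collagenase that neutrophils store in granules and macrophages can also make, had the largest difference of the 10 genes. Control replicates 1 to 4 held 67.1, 63.1, 50.1 and 56.7 CPM, and So(d18:1) replicates 1 to 4 held 132, 160, 134 and 138 CPM. The lowest So(d18:1) library lay far above the highest control library. The mean was 59.2 ± 7.43 CPM in the controls and 141 ± 12.9 CPM with So(d18:1) (SD, n = 4), which is 2.38-fold (1.25 on the log2 scale, SE 0.0914). Between 1189 and 1584 reads stood behind each control value, and 2354 to 3545 behind each So(d18:1) value. Mmp8 (ENSMUSG00000005800) spans chr9:7558456-7568485 on the plus strand of GRCm38. No 50-base word of its transcripts occurs in another gene.

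Mmp13, the other secreted collagenase of the set and a protease of fibrillar collagen in bone, cartilage and fibrotic liver, was higher as well but far less abundant. It stood at 4.86, 4.54, 4.60 and 4.04 CPM in control replicates 1 to 4 and at 9.31, 9.23, 10.3 and 7.95 CPM in So(d18:1) replicates 1 to 4. Every So(d18:1) library exceeded every control library, and the lowest of them was replicate 4. Means were 4.51 ± 0.340 and 9.19 ± 0.946 CPM (SD, n = 4), which is 2.03-fold (1.02 on the log2 scale, SE 0.119). Only 98 to 114 reads stood behind each control value and 166 to 205 behind each So(d18:1) value. Mmp13 (ENSMUSG00000050578) spans chr9:7272514-7283331. The AP-1, ETS, RUNX and TATA box matches printed above lie directly before its start.

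Mmp9, the gelatinase that cuts denatured collagen and basement membrane collagen, stood at 63.8, 61.3, 67.7 and 66.2 CPM in the controls and at 67.5, 58.5, 57.3 and 58.4 CPM with So(d18:1). The groups overlapped only through So(d18:1) replicate 1, which lay just under the highest control. Its log2 fold change was -0.10 (SE 0.0563) with all libraries and -0.16 without So(d18:1) replicate 1. Mmp9 (ENSMUSG00000017737) lies at chr2:164940780-164955850, away from the collagenase cluster.

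Mmp12, the macrophage elastase, held 122, 105, 162 and 126 CPM in control replicates 1 to 4. With So(d18:1) it held 122, 124, 106 and 108 CPM. The groups overlapped, and control replicate 3 stood apart above all other libraries. Its log2 fold change was -0.16 (SE 0.135), and -0.03 without control replicate 3. Mmp12 (ENSMUSG00000049723, chr9:7344381-7369499) lies between Mmp13 and Mmp8. It shares 157 bases with Mmp1b on the opposite strand, which was at 0 counts in every library, so at most 0.169 CPM in the smallest library by a limit of 3 counts.

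Mmp14, the membrane-type MMP that cuts collagen at the cell surface and activates the zymogen of Mmp2, was at 40.0, 37.6, 60.7 and 52.9 CPM in the controls. In the So(d18:1) libraries it was at 36.2, 26.9, 42.4 and 32.4 CPM. Replicate 3 was the highest of its group in both, and the groups overlapped. Mmp14 had a log2 fold change of -0.48 (SE 0.207), and of -0.34 without control replicate 3. Mmp14 (ENSMUSG00000000957) lies at chr14:54431612-54445364. Its activation of Mmp2 uses Timp2 as a bridge, and the ratio of Mmp14 to Timp2 per kb was 0.136 ± 0.0249 in controls and 0.125 ± 0.0255 with So(d18:1) (SD, n = 4), a difference smaller than either SD.

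Mmp19, an MMP of basement membrane components, had the smallest spread among the controls relative to its level. Its controls held 54.2, 53.4, 55.3 and 55.1 CPM and its So(d18:1) libraries 58.0, 56.0, 55.9 and 60.6 CPM. The So(d18:1) libraries were all above the controls, but only slightly. Its log2 fold change was 0.08 (SE 0.0490). Mmp19 (ENSMUSG00000025355, chr10:128790910-128800824) shares 1001 bases with Tmem198b on the opposite strand, which held 18.3 to 22.9 CPM. The strand setting of the counting is not given in the sources used here, so part of either count may belong to the other gene. Of the 50-base words of Mmp19, 24.7% occur in another gene when both strands are searched. Those genes are Tmem198b and Gm47093, which overlap Mmp19 on the opposite strand, so this is not a separate overlap.

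Timp2, the most abundant of the TIMPs and an inhibitor of nearly all MMPs, was lower with So(d18:1). Control replicates 1 to 4 held 221, 219, 242 and 230 CPM, and So(d18:1) replicates 1 to 4 held 182, 179, 175 and 183 CPM. The groups lay well apart, with little spread among the So(d18:1) libraries. Means were 228 ± 10.7 and 180 ± 3.58 CPM (SD, n = 4), which is 0.789 of the control level (-0.34 on the log2 scale, SE 0.0433). Timp2 (ENSMUSG00000017466) lies on the minus strand at chr11:118301069-118355740.

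Timp3, the TIMP that binds to matrix and also inhibits ADAM sheddases, was low. It was at 1.92, 2.15, 2.82 and 3.14 CPM in controls and at 1.57, 1.04, 2.03 and 1.63 CPM with So(d18:1), on 40 to 76 and 23 to 42 reads. So(d18:1) replicate 3 overlapped control replicate 1, and the other 3 So(d18:1) libraries were below all controls. The log2 fold change was -0.69 (SE 0.225). Over the fits that left out 1 library it ran from -0.83 to -0.53. Timp3 (ENSMUSG00000020044, chr10:86300372-86349506) sits inside Syn3, a gene on the opposite strand at 0.422 to 0.702 CPM with which it shares 1733 bases. Of its 50-base words, 21.4% occur in another gene when both strands are searched, most often in Syn3. That share therefore includes the bases shared with Syn3 and is not a separate overlap.

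Timp1, the inducible TIMP that binds the zymogen of Mmp9, was low as well, with 17 to 45 reads per library. Per kb of exon, Timp1 stood above Timp3 in both groups. The controls were at 1.11, 1.03, 1.90 and 1.28 CPM and the So(d18:1) libraries at 1.74, 1.22, 0.885 and 1.51 CPM. The groups covered nearly the same range. The log2 fold change was 0.01 (SE 0.268) and ran from -0.12 to 0.23 when 1 library was left out, highest without control replicate 3. Timp1 (ENSMUSG00000001131) lies at chrX:20870166-20874735.

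Adam8, a leukocyte metalloprotease-disintegrin that sheds adhesion molecules and receptors, was the most abundant gene of the set. It stood at 345, 323, 420 and 397 CPM in control replicates 1 to 4 and at 372, 354, 365 and 343 CPM in So(d18:1) replicates 1 to 4. The So(d18:1) libraries lay inside the range of the controls. The log2 fold change of -0.05 (SE 0.0706) became 0.01 without control replicate 3. Adam8 (ENSMUSG00000025473) lies on the minus strand at chr7:139978932-139992562.

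Control replicates 3 and 2 lay at opposite ends of the controls for most of the 10 genes. Control replicate 3 was the highest control for 7 of the 10 genes (Mmp9, Mmp12, Mmp14, Mmp19, Timp1, Timp2 and Adam8) and the lowest for Mmp8, and control replicate 2 was the lowest for the same 7. The log2 fold change of Mmp8 was 1.18 without control replicate 3 and 1.28 without control replicate 2. Without control replicate 2, that of Mmp12 was -0.25 and that of Adam8 -0.11.

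**Figure D2:**
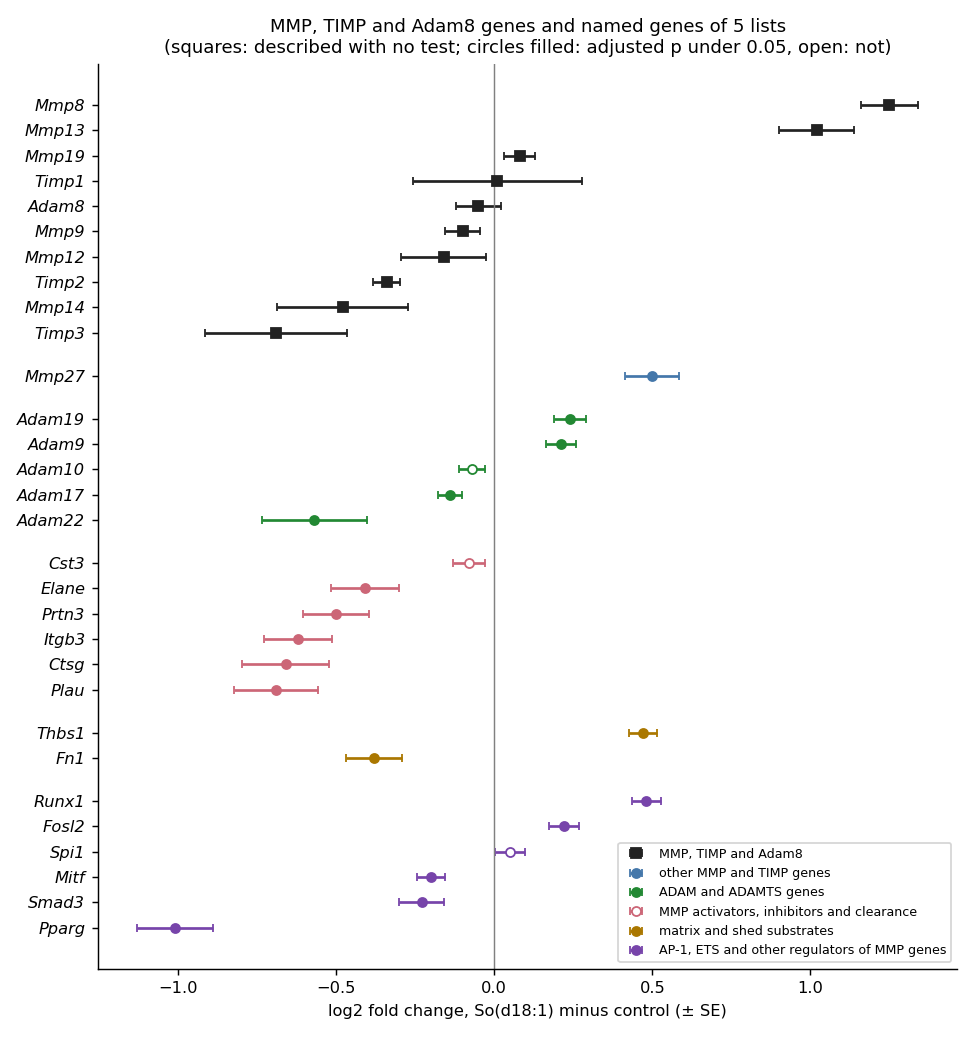
The horizontal axis gives the log2 fold change (So(d18:1) over control) of the 10 genes and of the named genes of 5 related lists, with bars of 1 SE. The 10 genes are squares, shown with no test, and list genes are circles, filled where the adjusted p is under 0.05. Mmp8 (1.25) and Mmp13 (1.02) lie farthest to the right and Pparg (-1.01) farthest to the left.

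Per kb of exon, the order of levels in the controls was Adam8 (80.1 CPM per kb), Timp2 (58.6), Mmp8 (24.4), Mmp9 (18.3), Mmp12 (17.8), Mmp19 (15.4), Mmp14 (8.02), Mmp13 (1.69), Timp1 and Timp3. Mmp9 and Mmp12, Mmp12 and Mmp19, and Mmp13 and Timp1 overlapped as neighbours across the 4 libraries. With So(d18:1) the top 3 were Adam8 (77.3 CPM per kb), Mmp8 (58.0) and Timp2 (46.2), so that Mmp8 stood above Timp2. All 4 So(d18:1) libraries had an Mmp8 to Timp2 ratio over 1, between 1.17 and 1.43, where the controls had 0.332 to 0.488. Mmp19 and Mmp12 also traded places with So(d18:1), but their libraries overlapped. Taking the longest transcript as the gene length moved Mmp12 to the third place in controls and the fourth with So(d18:1).

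**Figure D3:**
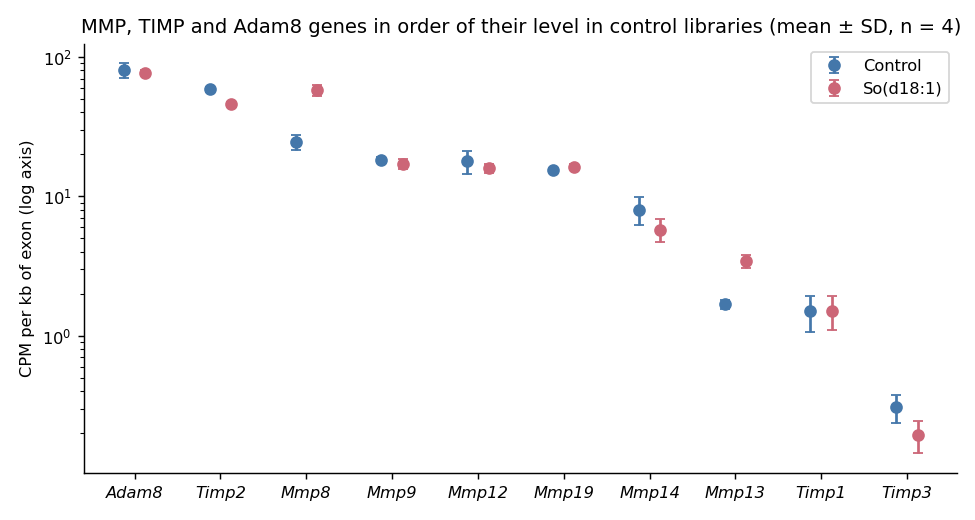
The vertical axis is CPM per kb of merged exon on a log scale for the 10 genes in order of their control mean, with points for the mean and bars for the SD of 4 libraries per group. The mean of Mmp8 lies under that of Timp2 in the controls and above it with So(d18:1).

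Summed per kb, the 6 MMP genes of the set came to 85.6 ± 3.61 CPM per kb in controls (SD, n = 4). With So(d18:1) they came to 117 ± 4.81 CPM per kb (SD, n = 4), a ratio of 1.36. MMP genes outside the set are left out of all sums and ratios here. Among them is Mmp27, at 16.8 CPM per kb in controls and 23.8 CPM per kb with So(d18:1). Without Mmp8 the sums were 61.2 ± 5.99 and 58.5 ± 2.24 CPM per kb, a difference within the SD of the controls. Mmp8 made up 28.6 ± 4.34% of the MMP sum in controls and 49.7 ± 2.75% with So(d18:1). The sum therefore moved with Mmp8, while Mmp13 supplied 1.97% of it in controls and 2.95% with So(d18:1). Timp2 made up 97.0 ± 0.625% of the TIMP sum in controls, and that sum was 60.4 ± 3.22 and 47.9 ± 1.29 CPM per kb. The ratio of the sum of these 6 MMP genes to the TIMP sum was 1.49, 1.40, 1.39 and 1.40 in control replicates 1 to 4. It was 2.38, 2.60, 2.44 and 2.32 in So(d18:1) replicates 1 to 4. These sums weigh each transcript alike and are no measure of proteolysis. They also depend on the gene length, here that of merged exons. With the longest transcript as length, Mmp12 stood at 28.7 CPM per kb in controls and 25.7 with So(d18:1), and Mmp14 at 14.8 and 10.6. Mmp8 kept 24.4 and 58 CPM per kb, so its share of the MMP sum is smaller by that length. Sums and ratios by that length were not computed.

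The chromosome 9 cluster holds 10 Mmp genes in 427 kb (7272514 to 7699585), and 4 of them passed the filter, in the order Mmp13, Mmp12, Mmp8 and Mmp27. Mmp27, a little-studied MMP next to Mmp8 (ENSMUSG00000070323, chr9:7571396-7581885), held 42.1, 41.0, 31.2 and 34.6 CPM in the controls and 53.4, 56.0, 53.3 and 47.9 CPM with So(d18:1). The groups did not overlap. It rose 1.41-fold (log2 fold change 0.50, SE 0.0857, adjusted p = 0.00187 in edgeR's quasi-likelihood test). The levels of Mmp13, Mmp8 and Mmp27 thus did not overlap between the groups, while those of Mmp12, between Mmp13 and Mmp8, did. Of the other 6 genes, Mmp1b, Mmp1a, Mmp20 and Mmp7 had no read in any library, while Mmp3 had 6 reads and Mmp10 had 7 over all 8 libraries. Control replicate 3 was the lowest library for Mmp27 as it was for Mmp8.

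Genes beside the cluster, taken by position, did not move alike. Birc3, an inhibitor of apoptosis and NF-κB target, rose from 186 ± 13.1 to 246 ± 5.55 CPM (adjusted p = 8.41e-06 in edgeR's quasi-likelihood test). Tmem123 rose from 189 ± 8.27 to 234 ± 3.96 CPM (adjusted p = 4.75e-05 in the same edgeR test). Their neighbour Birc2 had a log2 fold change of 0.11 (adjusted p = 0.316), and on the other side of the cluster Dync2h1 had 0.15 (adjusted p = 0.389) and Dcun1d5 had 0.07 (adjusted p = 0.442). Ddi1 had no read, and Yap1, with 31 reads in all, was not tested.

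**Figure D4:**
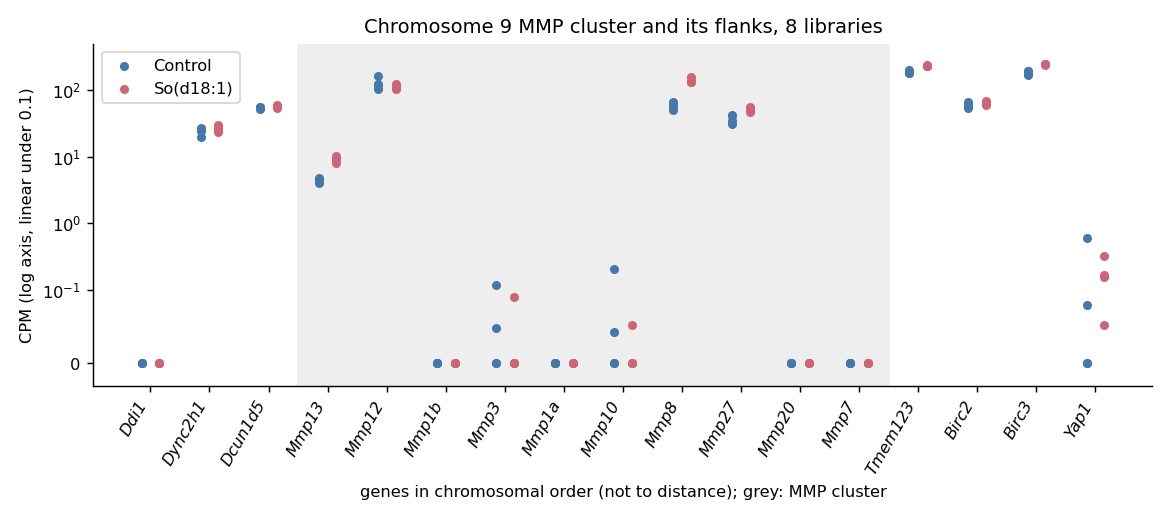
Genes of the chromosome 9 MMP cluster (grey band) and its flanks stand in chromosomal order on the horizontal axis, without distances, and the vertical axis is CPM, logarithmic above 0.1 and linear under it, with 1 point per library. Mmp13, Mmp8 and Mmp27 separate by group, Mmp12 does not, and the other MMP genes of the band are at or near 0.

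Mmp8 and Mmp9 are also granule proteins of neutrophils, so the markers of that cell type are given beside them. The 13 markers of neutrophils and granulocyte precursors summed to 2059 to 2748 CPM in controls and 1629 to 1856 CPM with So(d18:1), or 74.6% of the control mean (exact permutation test, two-sided, p = 0.0286, the smallest that 4 against 4 libraries allow, and 0.05 adjusted over 7 marker lists). Of the 13, 8 were called, all lower, and none was at 0 throughout. S100a8, a calcium-binding protein of neutrophils and monocytes, was at 297 ± 40.0 CPM in controls and 208 ± 13.6 CPM with So(d18:1) (SD, n = 4). The G-CSF receptor Csf3r fell from 358 ± 14.3 to 295 ± 28.0 CPM (edgeR adjusted p = 0.00362). The chemokine receptor Cxcr2 fell from 6.57 ± 0.733 to 4.28 ± 0.542 CPM (edgeR adjusted p = 0.00484). Mmp8 thus lay higher in the libraries where this marker list lay lower. In control replicate 3 Mmp8 was lowest of the controls while S100a8, at 354 CPM, was highest. Mmp9 differed from Mmp8: it was highest of the controls in that library, at 67.7 CPM, and had a log2 fold change of -0.10 (SE 0.0563). The part of granulocytes in the levels of Mmp8 and Mmp9 was not tested.

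**Figure D5:**
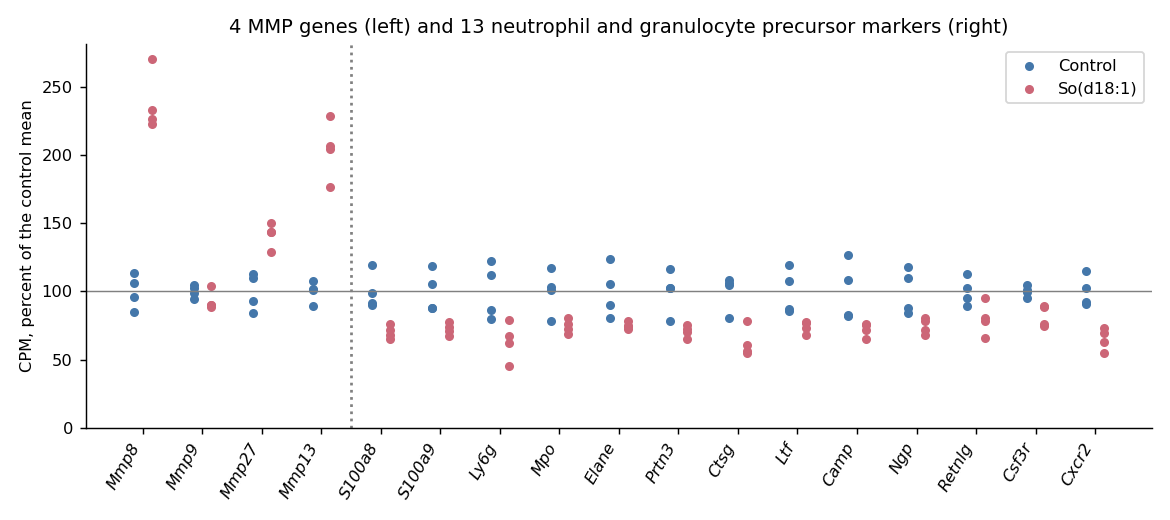
The vertical axis gives CPM as a percent of the control mean for Mmp8, Mmp9, Mmp27 and Mmp13 (left of the dotted line) and for 13 neutrophil and granulocyte precursor markers (right), with 1 point per library, blue for control and red for So(d18:1). Mmp8, Mmp27 and Mmp13 lie above 100% in all 4 So(d18:1) libraries, while each of the 13 markers lies under 100% in all 4.

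The other marker lists moved less or were low. Macrophage markers summed to 30650 to 32994 CPM in controls and 26524 to 31476 CPM with So(d18:1) (exact permutation test, two-sided, p = 0.114), with Itgam called higher and Cd68 and Mertk lower. Lyz2 alone held 20723 CPM of the control mean of 31361 CPM, so this sum mostly follows that gene. Monocyte markers summed to 3339 to 3601 and 2899 to 3083 CPM (p = 0.0286 by the same exact test, adjusted 0.05), with 4 of 7 lower and 1, the matrix proteoglycan Vcan, higher. F13a1 (1762 CPM) and Ccr2 (1276 CPM) held most of the monocyte control mean of 3464 CPM. Osteoclast markers, of interest because osteoclasts carry Mmp9 and Mmp14, summed to 142 to 156 and 124 to 136 CPM (exact p = 0.0286, adjusted 0.05), and Calcr, Ocstamp and Oscar were under 1 CPM in every library. Dendritic cell markers summed to 17.2 to 25.4 and 16.2 to 20.4 CPM (exact p = 0.171). Fibroblast markers, of interest for Timp3, came to 10.9 to 14.5 and 10.6 to 12.8 CPM (exact p = 0.486). Lymphocyte markers came to 2.71 to 4 and 0.905 to 2.64 CPM (exact p = 0.0286, adjusted 0.05).

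The rest of the metalloproteinase system was read from 5 lists that leave out the 10 genes. Of their 116 genes, 79 were tested, and 6 rose and 11 fell (21.5% called, beside 8.94% of all genes). The lists were chosen with earlier results of these data known. In the list of other MMP and TIMP genes, 5 of 18 were tested and only Mmp27 was called. Mmp25, a membrane-anchored MMP of leukocytes, had a log2 fold change of -0.55 (edgeR adjusted p = 0.0535), and the substrate of Mmp14, Mmp2, had -0.30 and was not called. The list's median log2 fold change was 0.283, beside 0.004 for all genes.

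Among ADAM and ADAMTS genes, 9 of 22 were tested, 2 rose and 2 fell, with a median log2 fold change of -0.071. Adam9, a sheddase of growth factors, rose from 238 ± 14.1 to 275 ± 11.3 CPM (edgeR adjusted p = 0.00693). Adam19 rose from 76.8 ± 3 to 90.5 ± 5.99 CPM (edgeR adjusted p = 0.00543). Adam10, the sheddase with the highest level per kb, stood at 847 ± 10.4 and 806 ± 30.8 CPM and was not called (edgeR adjusted p = 0.316). Adam17, the sheddase of TNF and a target of Timp3, had a log2 fold change of -0.14 (edgeR adjusted p = 0.0343) and lost its call whichever library was left out, with adjusted p of 0.0523 to 0.108. Adam22, which lacks protease activity, had -0.57 (edgeR adjusted p = 0.0389) and, when 1 library was left out, stayed called only without control replicate 2 or So(d18:1) replicate 3, with adjusted p up to 0.121 without So(d18:1) replicate 2.

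In the list of MMP activators, inhibitors and clearance genes, 20 of 26 were tested and 5 were called by edgeR's quasi-likelihood test, all lower. The list's median log2 fold change was -0.097. Plau, the urokinase that makes plasmin, a classical activator of MMP zymogens, fell from 32.7 ± 6.43 to 20.3 ± 1.72 CPM (edgeR adjusted p = 0.0108, and 0.0554 without So(d18:1) replicate 4). Itgb3, an integrin subunit, fell from 16.7 ± 2.38 to 10.8 ± 1.17 CPM (edgeR adjusted p = 0.000676). The other 3 were the neutrophil serine proteases Ctsg (8.22 ± 1.08 to 5.13 ± 0.895 CPM, edgeR adjusted p = 0.00323), Prtn3 (log2 fold change -0.50, edgeR adjusted p = 0.00378) and Elane (-0.41, edgeR adjusted p = 0.0286), which also stand in the neutrophil marker list. Elane was not called without control replicate 4 or when any 1 of the So(d18:1) libraries was left out, with adjusted p of 0.0544 to 0.0956. Cst3, a cystatin and so an inhibitor of cysteine proteases rather than of MMPs, had the highest level per kb of the list. It was at 613 ± 41.5 and 579 ± 28.9 CPM (edgeR adjusted p = 0.348).

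Among 24 matrix and shed substrates, 21 were tested, 1 rose and 1 fell, with a median log2 fold change of -0.149. Thrombospondin 1 (Thbs1), a matrix glycoprotein, was the most abundant and rose from 4188 ± 59.8 to 5806 ± 277 CPM (edgeR adjusted p = 3.69e-07). Fibronectin (Fn1) fell from 71.3 ± 9.80 to 54.9 ± 3.99 CPM (edgeR adjusted p = 0.0216). The call of Fn1 was lost without control replicate 1 and without So(d18:1) replicates 2, 3 or 4, with adjusted p of 0.0530 to 0.0798.

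Of 26 regulators of MMP genes, 24 were tested, 2 rose and 3 fell, with a median log2 fold change of 0.022. Runx1, a RUNX factor, rose from 129 ± 5.76 to 180 ± 7.68 CPM (edgeR adjusted p = 5.61e-07). Fosl2, an AP-1 subunit, rose from 153 ± 7.89 to 178 ± 8.50 CPM (edgeR adjusted p = 0.00463). Pparg, a nuclear receptor that restrains Mmp9 in macrophages, fell from 11.1 ± 1.03 to 5.50 ± 0.841 CPM (edgeR adjusted p = 9.82e-06). The microphthalmia factor Mitf had a log2 fold change of -0.20 (edgeR adjusted p = 0.00795), and the TGF-β mediator Smad3 had -0.23 (edgeR adjusted p = 0.0479). When 1 library was left out, Smad3 stayed called only without control replicate 1 or So(d18:1) replicate 3, with adjusted p up to 0.190 without So(d18:1) replicate 2. The ETS factor Spi1 had the highest level per kb, at 347 ± 13.6 and 360 ± 21.2 CPM, and was not called (edgeR adjusted p = 0.536).

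For the 3 genes with the highest level per kb, those whose levels followed them most closely were sought among 5556 genes of mean log2 CPM of at least 5, by Pearson's r of log2 CPM over the 8 libraries after the mean of each group was taken away. For Adam8 these were Tfeb (r = 0.987), Clip2 (0.983) and Slc6a8 (0.982). For Timp2 they were Camp (r = 0.981), a neutrophil granule peptide, Eif6 (0.977) and Snx3 (0.975). Mmp8 was followed by Ccnk (r = 0.978), Pdcd4 (0.974) and Usp45 (0.971). Spearman's rho for these 9 pairs ran from 0.786 to 1.000, and without the 2 libraries farthest from the median r stayed at 0.930 or above. These are the highest of 5556 values over libraries that share their total and composition, and are given as a description.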

How the data were processed

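Poly(A) RNA of 4 control and 4 So(d18:1) BMDM libraries was sequenced. According to the study's methods and the submitters' processing notes, Trim Galore 0.6.7 was used for trimming, HISAT2 2.2.1 for alignment to mm10 and featureCounts 2.0.1 for counting reads per gene. The authors deposited whole-number counts per gene without normalization, in 1 table whose columns carry the library names. The authors deposited gene lengths (other values, in bases) beside them. Symbols and GRCm38 coordinates came from GENCODE release M21, which named 94.1% of the identifiers and gave an equal merged exon length for 98.7% of those it named. Strand and multimapping settings are not given in the sources used here.

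The main model was fitted with edgeR 4.0.16 (limma 3.58.1, R 4.3.3). Genes passing filterByExpr were scaled by TMM (factors 0.989 to 1.01) and compared with the robust quasi-likelihood test, and p-values were adjusted by Benjamini-Hochberg over the 14514 genes tested. The biological coefficient of variation was 0.0657. The SE was obtained as the size of the log2 fold change over the root of F. Log2 CPM used a prior count of 2. The model was tested on simulated data. Replicates of a group differed by more than sampling noise (chi-square per gene 2.75 to 12.1).

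The members and the gene lists were chosen with earlier results of these data known. Named were the 10 genes, from each list up to 5 genes with the smallest adjusted p under 0.05 and the gene with the highest CPM per kb, and 3 like genes for each of 3 members. Mmp25, Mmp2, the genes of the chromosome 9 cluster and its flanks and the cell type markers were named outside that rule. Marker sums were compared by an exact permutation test. Alternatives were DESeq2 size factors, upper quartile scaling, no filter on low counts, the replicate number as a block, the Wald test of DESeq2 1.42.0 and each library left out in turn. Floors cover counting error only.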

Additional observations from a re-analysis of the deposited data

Results flagged for a closer look

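The level of Mmp9 in So(d18:1) replicate 1 stood apart from its group, at 6.08 on the log2 CPM scale (67.5 CPM) where the other 3 libraries lay between 5.84 and 5.87. Ctsg, a neutrophil serine protease, stood apart in control replicate 2, at 2.74 on the log2 CPM scale (6.61 CPM) where the other 3 controls lay between 3.13 and 3.17. These were 2 of 60 groups of 4 libraries examined by Dixon's ratio, of which chance would single out about 3.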

How the results depend on the processing

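Over all genes tested, 1298 were called, and 1290 with DESeq2 size factors, 1302 with upper quartile scaling, 1495 by DESeq2's Wald test, 1723 of 28076 with no filter on low counts, 1784 with the replicate block and 815 (without So(d18:1) replicate 2) to 1370 (without control replicate 2) when 1 library was left out. Of the 5 lists, 17 genes were called, 28 with the replicate block, and 11 (without So(d18:1) replicate 4) to 20 (without control replicate 2) with 1 library left out. The cause of these shifts was not tested. The replicate numbers are not stated to pair the libraries, and deviations of equal-numbered libraries correlated at -0.00351, 0.1, 0.0331 and 0.00909, with replicates 1, 3 and 4 closer to another number, so the block rests on a number alone. The 10 genes were chosen on this contrast, so no stability is read from their calls. Of 221 values of the list genes named as called, 190 kept the call and 31 lost it, with no change of direction. Timp1 and Timp3 rest on 17 to 76 reads per library, and what part counting error has in their spread was not tested.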
